A study of Mus musculus with 9 samples.

Results

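The signalling genes described here are the parts of the pathways around the membrane protein GAP-43: calmodulin-dependent kinases, protein kinase C (PKC), the phosphatase calcineurin, the α, β and γ subunits of G proteins, adenylyl cyclases and protein kinase A (PKA). Members were the probe sets with exactly 1 gene symbol whose symbol belongs to one of these families, with Adcy1 and Prkar2b left out. The rule itself used no measured value, but the set was chosen with earlier results of these data known. It found 117 probe sets of 62 genes among the 22690 probe sets of the array. Of these, 82 probe sets of 51 genes were bright enough to be tested and 35 were too dim. The calmodulin part of the set consists of calmodulin's partner enzymes. Camk2n1, Adcy1 and Prkar2b were not analysed here.

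GAP-43 is a growth cone protein that binds calmodulin, is phosphorylated by PKC and interacts with the G protein Go. A receptor coupled to a G protein splits it into an α subunit and a βγ pair. Gs and Gi/o raise and lower cAMP through the adenylyl cyclases, cAMP frees the catalytic subunits of PKA, and Gq leads through diacylglycerol and calcium to PKC and to calmodulin, which in turn switches on the calmodulin kinases and calcineurin. In layer IV of the barrel cortex, where thalamic axons build the map of the whiskers, cAMP signalling is known to be needed for that map.

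The mice were C57BL/6 at postnatal day 5 and were wild type (WT), heterozygous (Het) or knockout (KO) for Gap43, with 3 mice and 3 arrays for each genotype. No other allele and no treatment is named. Layer IV was cut out by laser microdissection, so that each array averages all cell types of the cut, and fewer cells of a type cannot be told apart from less RNA per cell. The labels do not say which stretch of Gap43 the knockout removes. Values are MAS5 signals, a linear brightness per probe set that the authors scaled to the same level on every array. Changes are differences of log2(signal + 16) with a 95% interval and the Benjamini-Hochberg adjusted p of limma over all 13576 probe sets tested.

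The signal of Gap43 was 7089, 4746 and 4294 in WT, 5015, 5039 and 4389 in Het, and 979, 1930 and 1299 in KO. It fell by 1.95 in KO against WT (adjusted p = 0.0173), while Het and WT overlapped (−0.13, adjusted p = 0.915). Each array correlated with the others across probe sets at a median r of 0.959 to 0.969. The log2 difference between the 3' and 5' control probe sets of Gapdh, which grows as RNA is degraded or shortened, was 3.65 to 4.28 in WT, 3.52 to 4.8 in Het and 3.99 to 4.11 in KO, with Het replicate 2 the highest. The summed signal of the astrocyte markers was 13988 to 18421 in WT, 13343 to 14051 in Het and 9561 to 14154 in KO, and 7 of its 8 tested genes were below 0 in KO against WT (median −0.38). The layer IV markers summed to 3287 to 3499 in WT, 3830 to 4310 in Het and 2081 to 3070 in KO, and Rorb, a transcription factor of layer IV neurons, averaged 530 ± 65.2 in WT against 328 ± 27.4 in KO (SD over 3 arrays each, adjusted p = 0.435). Markers of other layers summed to 783 to 1908 in WT, 876 to 1352 in Het and 613 to 2111 in KO, a wide spread within a genotype. One of them, Fezf2, read 706, 540 and 92.1 in WT, 410, 703 and 196 in Het, and 133, 534 and 831 in KO. Excitatory neuron markers summed to 26539 to 29019 in WT and 27116 to 32057 in KO, and interneuron markers to 4925 to 8468 and 4573 to 7744. Oligodendrocyte lineage markers summed to 3728 to 4486 in WT and 2986 to 4538 in KO. Microglial markers summed to 1439 to 3124 and 1319 to 1615, and endothelial and mural markers to 4139 to 4662 and 3745 to 4857. No marker was at 0, no marker list held a gene that passed the adjusted threshold in any of the 3 comparisons, and the part of these cell types in the results below was not tested.

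None of the 82 tested member probe sets passed an adjusted p of 0.05 with limma in any of the 3 comparisons. Over all probe sets tested, 0.00737% passed in KO against WT (Gap43 itself), 0% in Het against WT and 0.00737% in KO against Het (again Gap43). At an unadjusted p below 0.05, 6 member probe sets were higher and 5 lower in KO than in WT, or 7.32% and 6.1%, where all probe sets gave 4.43% and 3.59%. In Het against WT, 3 were higher and 1 lower (3.66% and 1.22%, against 4.06% and 2.16% of all). In KO against Het, 3 were higher and 5 lower (3.66% and 6.1%, against 3.96% and 3.76%). In both directions together, the 11 of KO against WT (13.4%, against 8.03% of all) became 5 without WT replicate 3 (6.1%, against 6.17%), 6 without WT replicate 1 (7.32%, against 6.12%) and 7 without KO replicate 1 (8.54%, against 5.08%). The 4 of Het against WT (4.88%, against 6.22%) became 2 without Het replicate 3 (2.44%, against 4.76%), and the 8 of KO against Het (9.76%, against 7.73%) became 5 without Het replicate 1 (6.1%, against 6.64%). These counts are of probe sets, and Adcy3 and Gng12 enter with more than 1. On the brightest probe set of each of 51 genes, 4 were higher and 4 lower in KO against WT (all genes 4.41% and 3.74%). In Het against WT they were 0 and 1 (all genes 4.09% and 1.94%), and in KO against Het 2 and 3 (all genes 3.56% and 4.08%).

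The 3 arrays of KO lay wholly above those of WT for 10 member probe sets and wholly below for 6, or 12.2% and 7.32%, where all probe sets gave 7.83% and 5.83%. For Het against WT the figures were 4 and 2 (4.88% and 2.44%, against 8.51% and 4.39% of all). For KO against Het they were 7 and 7 (8.54% in each direction, against 6.67% and 7.35%). Taking the brightest probe set of each gene, 25 of the 51 genes were above 0 in KO against WT with a median of −0.01, where all 8503 genes had a median of 0.02. In Het against WT 31 were above 0 (median 0.02, all genes 0.04), and in KO against Het 21 (median −0.01, all genes −0.03). Those last 2 splits depend on the scaling of the arrays, since with all arrays brought to the same median 25 and 30 of the 51 genes were above 0.

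By family, KO against WT gave medians on both sides of 0. Calmodulin kinases had a median of 0.21 over 8 genes with 6 above 0. The γ subunits had −0.13 over 7 genes with 5 below 0, and PKC −0.10 over 6 genes with 4 below 0. The β subunits and the cyclases both had 0.09 (3 of 5 and 4 of 6 above 0), the α subunits and PKA −0.01 (5 of 11 and 2 of 4 above 0), and calcineurin −0.05 (1 of 4 above 0). These signs and counts held with the arrays brought to the same median and with quantile normalization. For single probe sets, the SD between arrays of the same genotype had a median of 0.23 on the log2 scale, for the members as for all probe sets. The lowest was 0.08, for a probe set of Gnai1, and the highest 1.15, for the dimmer probe set of Gng2.

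**Figure D1:**
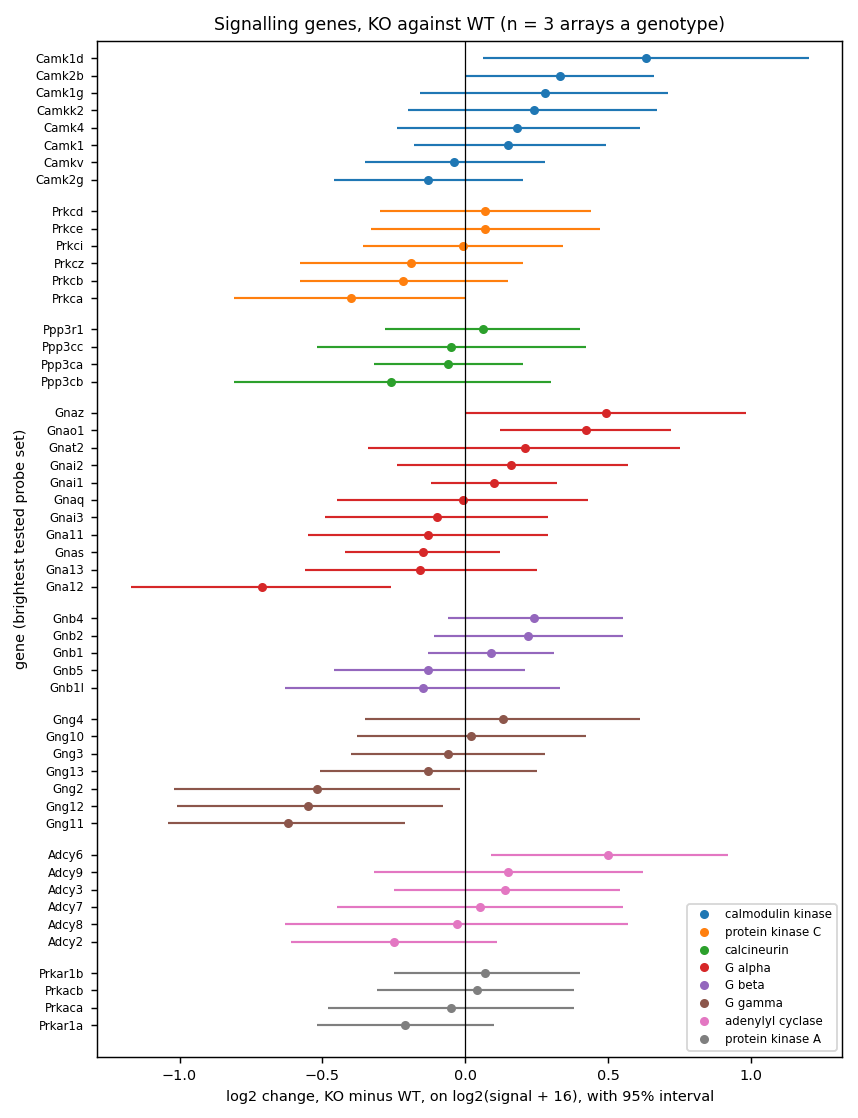
The log2 change in KO against WT (horizontal axis, on log2(signal + 16)) with its 95% interval for the brightest tested probe set of each of 51 genes, sorted within 8 families marked by colour, from 3 arrays a genotype. Camk1d is farthest to the right at 0.63 and Gna12 farthest to the left at −0.71, and most intervals cross the line at 0.

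Among the α subunits, which bind GTP and give a G protein its name, 3 stood apart in KO at the unadjusted level. Gnao1 encodes αo, the subunit that GAP-43 interacts with and the most abundant α subunit of brain. Its brightest probe set read 2858, 2824 and 3830 in WT, 3455, 3415 and 3159 in Het, and 4364, 4039 and 4189 in KO. All 3 KO arrays lay above all 6 others. The change was 0.42 in KO against WT (0.12 to 0.72, 1.34-fold, adjusted p = 0.518) and 0.33 in KO against Het (0.03 to 0.63, 1.25-fold, adjusted p = 0.618), while Het against WT gave 0.09. A dimmer probe set of Gnao1 read 128, 122 and 91.2 in WT, 155, 164 and 147 in Het, and 238, 208 and 94.5 in KO. Its point estimate was on the same side (0.52, −0.09 to 1.13, adjusted p = 0.683), but KO replicate 3 lay among the WT arrays. The WT mean on this probe set was 114, below the lowest mean kept of about 117.

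Gnaz encodes αz, an inhibitory subunit of neurons that is insensitive to pertussis toxin. It read 639, 919 and 610 in WT, 710, 1189 and 654 in Het, and 1082, 980 and 958 in KO. The KO arrays lay above the WT arrays, with Het replicate 2 above them all. The change in KO against WT was 0.49 (0.00 to 0.98, 1.41-fold, adjusted p = 0.622), or 0.38 (adjusted p = 0.494) with the Gapdh 3'/5' difference as a term in the fit.

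Gna12 encodes α12, which couples receptors to the actin cytoskeleton. Its tested probe set read 257, 227 and 295 in WT, 293, 198 and 214 in Het, and 192, 144 and 125 in KO. The KO arrays lay below all WT and all Het arrays. The change was −0.71 in KO against WT (−1.17 to −0.26, 1.64-fold, adjusted p = 0.473) and −0.56 in KO against Het (−1.02 to −0.11, 1.48-fold, adjusted p = 0.563), and Het against WT gave −0.15. The other 4 probe sets of Gna12 read 8.67 to 111 over all arrays and were too dim to test. Its close relative Gna13 had 5 tested probe sets, whose KO against Het changes were −0.18, 0.27, 0.17, −0.47 and 0.09. The one at −0.47 (−0.94 to −0.01, adjusted p = 0.642) read 186, 113 and 158 in WT, 171, 174 and 225 in Het, and 120, 126 and 151 in KO. It is not the brightest of the 5, and the probe sets of Gna13 do not point one way.

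On their brightest probe sets, the remaining α subunits lay between −0.15 and 0.21 in KO against WT. Gnas, the stimulatory subunit that turns cyclases on, read 7467, 8651 and 7241 in WT, 6564, 6921 and 6430 in Het, and 6143, 8055 and 6906 in KO. Every Het array lay below every WT array (−0.23, −0.49 to 0.04, adjusted p = 0.79), and KO overlapped both. Gnai1, an inhibitory subunit that turns cyclases off, differed little between arrays, with 8046, 8945 and 7454 in WT, 8115, 8535 and 8121 in Het, and 8605, 8665 and 8868 in KO, a change of 0.10 in KO against WT (−0.12 to 0.32). Gnai2 was at 0.16, Gnai3 at −0.10, Gna11 at −0.13, Gnat2, the α subunit of cone phototransduction, at 0.21 and Gnaq at −0.01 in KO against WT, all with overlapping arrays on these probe sets. The intervals of these 5 genes leave room for changes of about the size seen in Gnao1, so they are not shown to be level. A dimmer probe set of Gnai3 went the other way, at 0.18 in KO against WT (adjusted p = 0.799). Its KO arrays (586, 560 and 558) lay above its WT arrays (455, 529 and 512).

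The promoter windows of Gnao1 and Gna12 are shown because these were the α subunits whose KO arrays did not overlap those of either other genotype on their brightest probe set. Each window is 300 bases from the RefSeq promoter table (GRCm38.p6), 250 before the gene's start and 50 from the start on, written 5′ to 3′ along the gene, with motif matches in capitals: the GC box GGGCGG or its other strand CCGCCC, the cAMP response element (CRE) palindrome TGACGTCA, its core TGACG or CGTCA, and TATAAA or TTTATA. The window of Gnao1 lies at chr8:93810588-93810887 on the plus strand and that of Gna12 at chr5:140830382-140830681 on the minus strand.
Gnao1: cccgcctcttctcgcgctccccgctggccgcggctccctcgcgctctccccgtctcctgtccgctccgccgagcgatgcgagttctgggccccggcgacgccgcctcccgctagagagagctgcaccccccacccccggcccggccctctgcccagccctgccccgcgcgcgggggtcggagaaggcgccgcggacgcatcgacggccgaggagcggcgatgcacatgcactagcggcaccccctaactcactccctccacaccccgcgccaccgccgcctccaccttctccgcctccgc
Gna12: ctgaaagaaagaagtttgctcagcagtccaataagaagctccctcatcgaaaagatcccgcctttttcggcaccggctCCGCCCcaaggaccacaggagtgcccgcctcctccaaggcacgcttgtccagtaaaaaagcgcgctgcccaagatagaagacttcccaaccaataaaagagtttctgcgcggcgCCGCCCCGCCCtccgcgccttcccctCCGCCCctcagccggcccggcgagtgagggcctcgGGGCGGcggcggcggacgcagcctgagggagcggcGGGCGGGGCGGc
The Gnao1 window held none of the 4 motifs at a GC content of 76.3%. The Gna12 window held 7 GC boxes, overlapping ones counted, at 65.7%. Of the 46 member genes with a window in the table, 34 (73.9%) held a GC box, against 38.2% of all 27025 genes of the table. A gene counts if any of its windows holds the motif, and member genes have more windows each (1.54 on average, against 1.22); over windows the shares were 60.6% of 71 and 35.7% of 32851. A match says that these letters are present and no more.

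The γ subunits anchor the βγ pair in the membrane. Gng11, a γ subunit carried mostly outside neurons, read 437, 436 and 542 in WT, 561, 395 and 399 in Het, and 335, 322 and 248 in KO. All KO arrays were the lowest of the 9. The change was −0.62 in KO against WT (−1.04 to −0.21, 1.54-fold, adjusted p = 0.476) and −0.55 in KO against Het (−0.96 to −0.14, 1.47-fold, adjusted p = 0.539), and −0.07 in Het against WT.

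Gng12, a γ subunit known from glia among other cells, had a pair of tested probe sets. The brighter read 895, 689 and 894 in WT, 663, 589 and 828 in Het, and 482, 775 and 461 in KO. KO replicate 2 lay among the WT arrays, and the change in KO against WT was −0.55 (−1.01 to −0.08, 1.46-fold, adjusted p = 0.575). The dimmer read 388, 351 and 439 in WT, 438, 520 and 493 in Het, and 249, 359 and 292 in KO. There the KO arrays lay below every Het array, with −0.67 in KO against Het (−1.05 to −0.29, 1.59-fold, adjusted p = 0.356, the smallest adjusted p of any member) and −0.38 in KO against WT (−0.76 to −0.00, adjusted p = 0.622). In Het against WT the probe sets of Gng12 went opposite ways, −0.25 and 0.29, so that the place of Het between the other genotypes depends on the probe set.

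Gng2, a γ subunit common in neurons, read 501, 462 and 441 in WT, 501, 362 and 407 in Het, and 421, 208 and 372 in KO. Its KO arrays lay below its WT arrays, but the change of −0.52 (−1.02 to −0.02, adjusted p = 0.612) was −0.23 without KO replicate 2. Its dimmer probe set ranged from 19.2 in KO replicate 1 to 316 in KO replicate 3, so that it carries no usable comparison (−0.86, −2.29 to 0.58). Gng3, a neuronal γ subunit, read 2584, 3337 and 3088 in WT and 2533, 3088 and 2990 in KO (−0.06, −0.40 to 0.28). Gng4 was at 0.13 and Gng10 at 0.02 with overlapping arrays, and Gng13 at −0.13 with its KO arrays (280, 262 and 266) just under its WT arrays (307, 281 and 301). Gng11, Gng12 and Gng2, the γ genes with the lowest values in KO against WT, were measured on arrays whose summed astrocyte signal was 9561 to 14154 in KO and 13988 to 18421 in WT, and whose summed layer IV signal was 2081 to 3070 and 3287 to 3499. On the same arrays, the summed endothelial and mural signal was 3745 to 4857 in KO and 4139 to 4662 in WT. The summed excitatory neuron signal was 27116 to 32057 in KO and 26539 to 29019 in WT. The part of these cell types in the γ values was not tested.

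**Figure D2:**
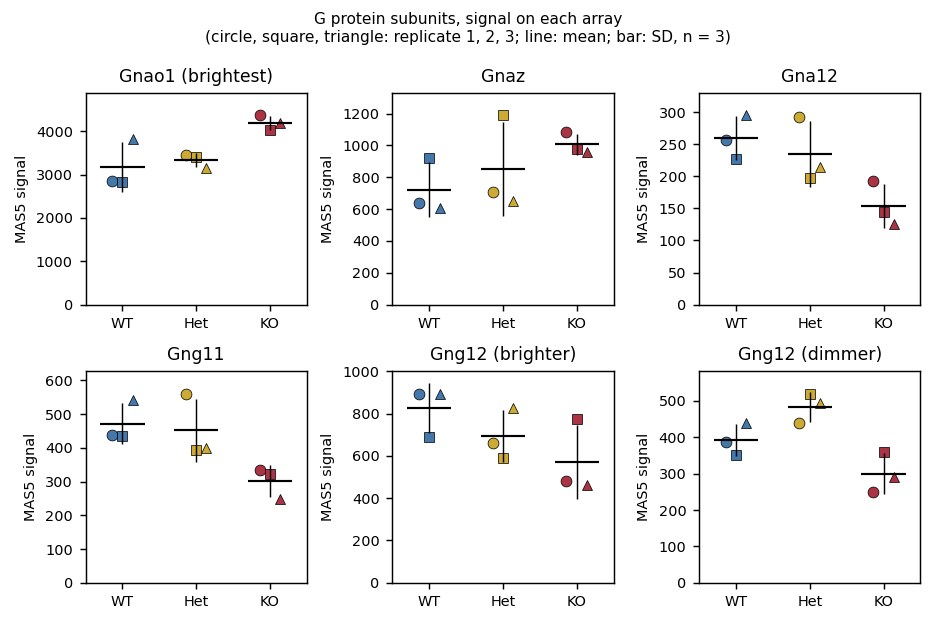
MAS5 signal (vertical axis, linear, from 0) on each of the 9 arrays for Gnao1, Gnaz, Gna12, Gng11 and both tested probe sets of Gng12, by genotype; symbols mark the replicate number, the line the mean and the bar the SD of 3 arrays. The KO arrays of Gnao1 sit above all others at 4039 to 4364, and those of Gna12 and Gng11 sit below all others at 125 to 192 and 248 to 335.

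No β subunit reached an unadjusted p of 0.05 on its brightest probe set. Gnb1, the main β subunit of cortex, read 8876, 10374 and 9451 in WT, 9998, 11013 and 10359 in Het, and 10100, 10752 and 9719 in KO on its brightest probe set, a change of 0.09 in KO against WT (−0.13 to 0.31). A dimmer probe set of Gnb1 read 491, 467 and 615 in WT, 621, 264 and 501 in Het, and 850, 670 and 690 in KO. The KO arrays were the 3 highest, but the KO against Het change of 0.73 (0.17 to 1.29, adjusted p = 0.542) was 0.38 without Het replicate 2, the lowest array and the one with the highest Gapdh 3'/5' difference, whose part was not tested. Gnb4 had KO above WT on both of its probe sets, each with a change of 0.24: the brighter read 1768, 1526 and 1890 in WT and 2217, 2023 and 1899 in KO (adjusted p = 0.714). Gnb2 was at 0.22 and Gnb5, the β subunit that pairs with RGS proteins, at −0.13, both with overlapping arrays. Gnb1l, which the rule takes in by its symbol although it encodes a WD-repeat protein outside the G proteins, was at −0.15 in KO against WT, and its KO arrays lay below its Het arrays (−0.37, −0.85 to 0.10, adjusted p = 0.739).

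Adenylyl cyclases make cAMP from ATP. Adcy6, a cyclase that calcium inhibits, read 345, 529 and 439 in WT, 439, 462 and 513 in Het, and 767, 537 and 572 in KO. Every KO array lay above every other array, though KO replicate 2 exceeded WT replicate 2 by little. The change was 0.50 in KO against WT (0.09 to 0.92, 1.42-fold, adjusted p = 0.552) and 0.38 in KO against Het (−0.04 to 0.80, 1.30-fold, adjusted p = 0.673).

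Adcy3, a cyclase known from primary cilia and olfactory neurons, gave different answers on its 3 tested probe sets. The brightest read 1189, 1571 and 1181 in WT, 1402, 1351 and 1465 in Het, and 1704, 1102 and 1580 in KO, with a KO against WT change of 0.14 (−0.25 to 0.54, adjusted p = 0.877) and overlapping arrays. The second read 400, 518 and 345 in WT, 708, 702 and 551 in Het, and 813, 509 and 612 in KO. On it every Het array lay above every WT array (0.62, 0.18 to 1.07, 1.54-fold, adjusted p = 0.789), and KO was 0.59 above WT (0.14 to 1.04, 1.5-fold, adjusted p = 0.536) with KO replicate 2 just below WT replicate 2. The dimmest read 99.5, 53 and 88.7 in WT, 154, 126 and 120 in Het, and 101, 194 and 181 in KO, and both mutant genotypes lay above WT, by 0.66 in Het (0.07 to 1.25, adjusted p = 0.789) and 0.85 in KO (0.26 to 1.43, adjusted p = 0.518). Both comparisons use the same WT arrays. The WT mean on the dimmest was 80.4, below the lowest mean kept of about 117, so it passed the filter through its mutant arrays. Its KO replicate 1 lay only just above WT replicate 1. By Affymetrix's naming of probe sets, the second and the dimmest are of types whose probes can bind several transcripts, and the probe set of highest mean, which stands for the gene, shows no such difference. This limit is not particular to Adcy3. Probe sets of these types also stand for Gnas, Gnai1, Ppp3ca, Prkar1b and Marcks, among others. The Gna13 probe set at −0.47 in KO against Het is of such a type too.

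None of the other cyclases reached an unadjusted p of 0.05 in any comparison. Adcy2, which βγ stimulates, read 2173, 2787 and 1889 in WT, 2684, 2052 and 2011 in Het, and 1903, 1827 and 1945 in KO. Its KO arrays lay below its Het arrays by little (−0.24, −0.60 to 0.13, adjusted p = 0.795). Adcy8, which calcium and calmodulin stimulate, read 340, 205 and 324 in WT, 358, 217 and 230 in Het, and 195, 267 and 405 in KO (KO against WT −0.03, −0.63 to 0.57), with an interval too wide to place it. Adcy9 was at 0.15 and 0.32 in KO against WT and against Het, its KO arrays of 501 to 644 lying above its Het arrays of 422 to 476. Adcy7 was at 0.05 in KO against WT, −0.34 in Het against WT and 0.39 in KO against Het (−0.11 to 0.89, adjusted p = 0.737), with overlapping arrays on its brighter probe set. Its dimmer probe set read 154, 116 and 111 in WT and 159, 166 and 170 in KO, with the KO arrays above the WT arrays (0.35, −0.11 to 0.81, adjusted p = 0.728).

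PKA is a tetramer of a pair of regulatory and a pair of catalytic subunits, and cAMP releases the catalytic ones. Prkar1a, a regulatory subunit, read 1064, 1242 and 1044 in WT, 937, 839 and 839 in Het, and 947, 940 and 989 in KO on its brightest probe set. The 6 mutant arrays all read lower than the 3 WT arrays, with −0.35 in Het (−0.66 to −0.04, 1.27-fold, adjusted p = 0.789) and −0.21 in KO (−0.52 to 0.10, 1.16-fold, adjusted p = 0.744), both against the same WT arrays. A dimmer probe set of Prkar1a read 979, 736 and 1079 in WT, 1176, 885 and 706 in Het, and 733, 1171 and 973 in KO. It gave −0.03 in Het (−0.51 to 0.46) and 0.03 in KO (−0.45 to 0.52) against WT, with overlapping arrays. These intervals include the changes of the brightest probe set, so it cannot tell whether the difference is shared. The neuronal regulatory subunit Prkar1b was at 0.07 and 0.15 in KO against WT on its 2 tested probe sets. The catalytic subunits Prkaca and Prkacb were at −0.05 (−0.48 to 0.38) and 0.04 (−0.31 to 0.38), with overlapping arrays.

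The CRE palindrome, to which the PKA target CREB binds, was found in the windows of 2 of the 46 member genes (4.35%), Prkar1a and Prkcz, against 2.03% of all genes of the table (3 of 71 windows, or 4.23%, against 1.79% of all windows). A window of each is shown because Prkar1a is a part of PKA and the only member gene whose brightest probe set had an unadjusted p below 0.05 in Het against WT. The first base of the palindrome lies at −49 from the gene start in the Prkar1a window at chr11:109650699-109650998 (plus strand), and at −7 in the Prkcz window at chr4:155345740-155346039 (minus strand), with the start base counted as 0. Capitals mark the same motifs as above.
Prkar1a: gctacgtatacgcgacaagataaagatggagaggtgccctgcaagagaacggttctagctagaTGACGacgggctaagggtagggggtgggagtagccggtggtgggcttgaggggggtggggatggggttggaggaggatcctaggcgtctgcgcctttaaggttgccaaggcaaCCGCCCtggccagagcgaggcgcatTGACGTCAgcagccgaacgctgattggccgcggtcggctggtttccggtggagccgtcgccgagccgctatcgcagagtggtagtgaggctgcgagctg
Prkcz: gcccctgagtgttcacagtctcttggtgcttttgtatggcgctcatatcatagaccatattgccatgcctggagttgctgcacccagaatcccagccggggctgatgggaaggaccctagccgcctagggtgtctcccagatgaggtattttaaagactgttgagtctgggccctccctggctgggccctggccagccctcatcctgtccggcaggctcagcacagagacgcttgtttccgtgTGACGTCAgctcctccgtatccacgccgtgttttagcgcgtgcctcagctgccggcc
Prkar1a has 6 windows in the table and Prkcz 3, of which these are the fifth and the second. The fourth window of Prkar1a, which overlaps the fifth, also holds the palindrome, with its first base at 38 from the gene start of that window. Which start is used in layer IV was not measured. The TGACG core alone was found in 17 member genes (37%), against 23% of all (31% and 20.8% of windows). TATAAA was found in 4 (8.7%; Gnas, Gnb5, Prkacb and Prkcd), against 15.7% (8.45% and 13.6% of windows).

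**Figure D3:**
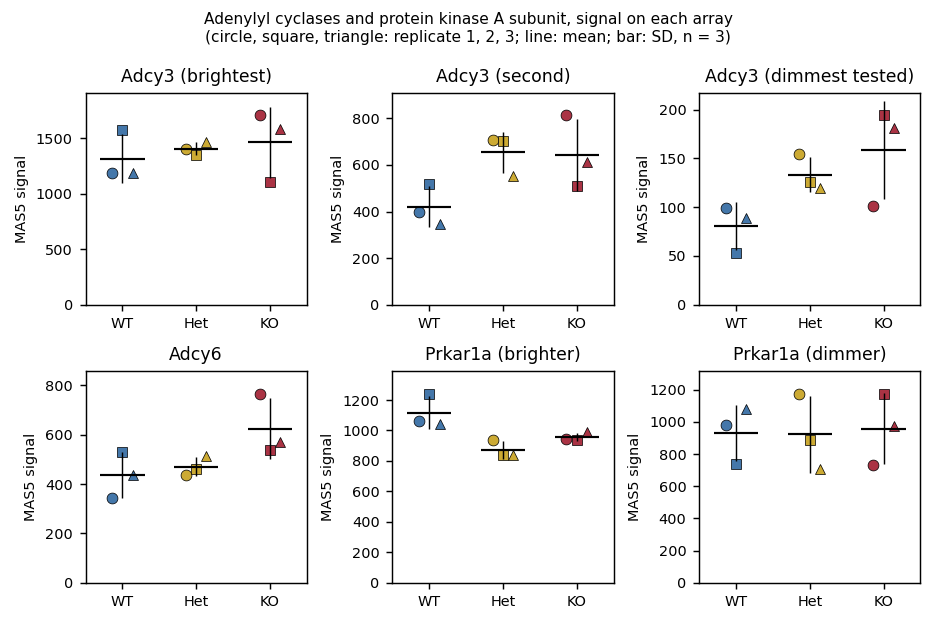
MAS5 signal (vertical axis, linear, from 0) on each of the 9 arrays for the 3 tested probe sets of Adcy3, for Adcy6 and for both tested probe sets of Prkar1a, by genotype; symbols mark the replicate number, the line the mean and the bar the SD of 3 arrays. The brightest Adcy3 panel overlaps between genotypes where the other 2 do not all overlap, and the WT arrays of 1044 to 1242 stand highest on the brighter Prkar1a probe set only.

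Among the kinases that calmodulin switches on, Camk1d, a CaM kinase I isoform, read 244, 391 and 180 in WT, 286, 168 and 266 in Het, and 347, 448 and 441 in KO on its brighter probe set. The KO arrays lay above every Het array (0.77, 0.19 to 1.34, 1.70-fold, adjusted p = 0.539) and overlapped WT through WT replicate 2. The KO against WT change of 0.63 (0.06 to 1.2, 1.55-fold, adjusted p = 0.586) was 0.39 without WT replicate 3. The dimmer probe set of Camk1d was at 0.22 in KO against WT and 0.28 in KO against Het, with overlapping arrays.

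Camk2b, the β subunit of the synaptic CaM kinase II and its link to actin, read 1614, 1696 and 1787 in WT, 1504, 1761 and 1943 in Het, and 2451, 2159 and 1843 in KO. The KO arrays lay above the WT arrays, KO replicate 3 by little, with a change of 0.33 (−0.00 to 0.66, 1.26-fold, adjusted p = 0.623). Camk2a, the α subunit, which comes up later in cortical development, read only 2.43 to 6.57 over the 9 arrays and was not tested. Camk2g was at −0.13 in KO against WT with overlapping arrays.

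Camkk2, the kinase that activates CaM kinases I and IV, had a pair of tested probe sets. The dimmer read 529, 837 and 668 in WT, 736, 958 and 1108 in Het, and 907, 666 and 922 in KO, with 0.46 in Het against WT (0.00 to 0.91, 1.37-fold, adjusted p = 0.789) and overlapping arrays, or 0.30 without WT replicate 1. The brighter read 3491, 6726 and 4235 in WT, 4693, 6248 and 5910 in Het, and 5799, 5111 and 5492 in KO, and gave 0.27 in Het and 0.24 in KO against the same WT arrays. Its WT arrays alone span more than the difference. Camk1g was at 0.28 in KO and 0.31 in Het against WT, Camk4, the nuclear kinase that acts on CREB, at 0.18 and 0.19, and Camk1 at 0.15 and 0.16. Camkv, a kinase-like protein without activity, was at −0.04 in KO against WT. All 4 overlapped on these probe sets. A dimmer probe set of Camk1 went the other way, at −0.17 in KO against WT (adjusted p = 0.848). Its KO arrays (234, 210 and 244) lay below its WT arrays (260, 258 and 259).

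PKC phosphorylates GAP-43 at its calmodulin-binding site. Prkca, a conventional isoform that needs calcium, read 225, 267 and 300 in WT, 305, 287 and 299 in Het, and 238, 155 and 198 in KO. The KO arrays lay below every Het array (−0.57, −0.98 to −0.17, 1.49-fold, adjusted p = 0.502), and only KO replicate 1 reached the WT range (−0.40, −0.81 to 0.00, adjusted p = 0.629). Prkcb, the conventional isoform prominent in cortex, read 3495, 3234 and 3521 in WT, 2806, 4525 and 3553 in Het, and 2785, 3436 and 2651 in KO on its brighter probe set. The arrays overlapped, with −0.22 in KO against WT (−0.58 to 0.15) and −0.28 against Het. Het replicate 2 was the highest there, as it was on 15 of the 82 member probe sets (18.3%, against 12.5% of all probe sets), and it has the highest Gapdh 3'/5' difference; the part of RNA quality was not tested.

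Of the isoforms that do not need calcium, Prkce was at 0.07, Prkcd at 0.07, Prkci at −0.01 and Prkcz at −0.19 (−0.58 to 0.20) in KO against WT. Prkcz, an atypical isoform, read 1710, 2429 and 1539 in WT, 1671, 1376 and 1504 in Het, and 1794, 1432 and 1672 in KO, with −0.29 in Het against WT (−0.68 to 0.09, adjusted p = 0.801). WT replicate 2 stood above the other 8 arrays of Prkcz, and a dimmer probe set of it was on the other side in Het against WT at 0.17.

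Calcineurin, the phosphatase that calmodulin activates, takes phosphate off GAP-43. Its regulatory subunit Ppp3r1 read 3245, 2328 and 3240 in WT, 3478, 3703 and 3747 in Het, and 2697, 3494 and 2945 in KO. Every Het array lay above every WT array (0.32, −0.01 to 0.66, 1.25-fold, adjusted p = 0.79), and KO overlapped WT (0.06, −0.28 to 0.40). The catalytic subunit Ppp3ca was at −0.06 in KO against WT on its brightest probe set (−0.32 to 0.20). For the catalytic subunit Ppp3cb the probe sets were opposed, at −0.26 and 0.31 in KO and −0.38 and 0.38 in Het against WT, with intervals that include 0. Ppp3cc, the third catalytic subunit, read 108, 103 and 137 in WT, 126, 139 and 191 in Het, and 127, 107 and 101 in KO, near the lower limit of the tested range, with −0.38 in KO against Het (−0.85 to 0.08, adjusted p = 0.717).

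**Figure D4:**
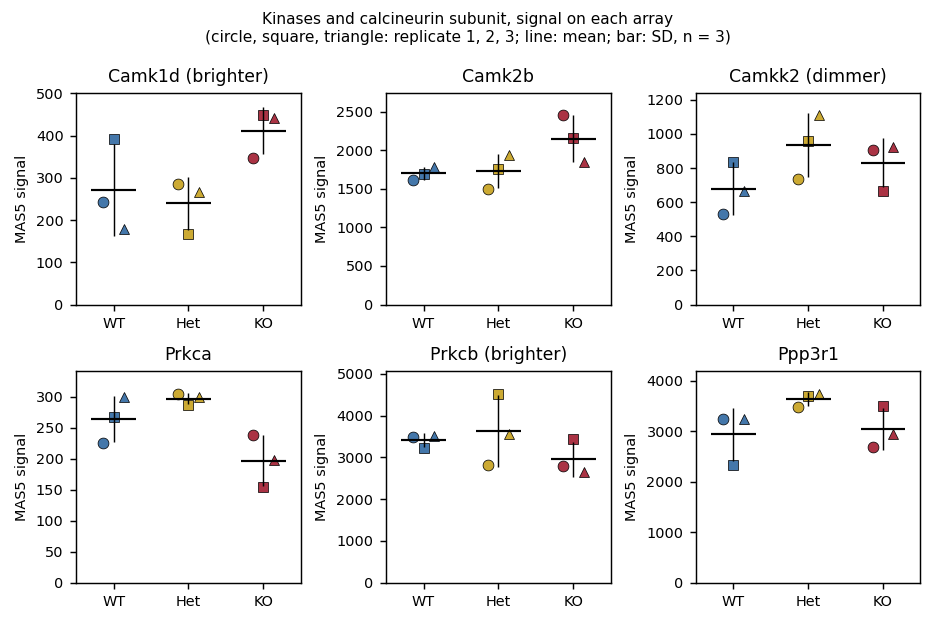
MAS5 signal (vertical axis, linear, from 0) on each of the 9 arrays for Camk1d, Camk2b, Camkk2, Prkca, Prkcb and Ppp3r1, by genotype; symbols mark the replicate number, the line the mean and the bar the SD of 3 arrays. The Prkca arrays of Het cluster at 287 to 305 above the KO arrays at 155 to 238, while the Camk1d arrays of KO at 347 to 448 exceed those of Het at 168 to 286.

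Different probe sets of the same gene often disagreed. Of the 24 genes with more than 1 tested probe set, all probe sets lay on the same side of 0 in 14 for KO against WT, in 9 for Het against WT and in 13 for KO against Het. Both probe sets of Gng12 and of Gnb4 and all 3 of Adcy3 and Adcy9 agreed in sign in KO against WT, while those of Ppp3cb did not. For 11 genes no probe set could be tested: Adcy4, Camk2a, Camk2d, Gna14, Gna15, Gnasas1, Gnat1, Gnb3, Prkar2a, Prkch and Prkcq. Gnasas1 is a noncoding antisense transcript of the Gnas locus. A further 4 probe sets carry several gene symbols, 1 of which matches a family, and were not used.

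Other genes of these pathways were taken in 5 lists by their known roles, drawn up with earlier results of these data known. None passed the adjusted threshold in any comparison. Of 26 tested substrates and partners of PKC and calmodulin, 18 were above 0 in KO against WT (69.2%, against 53.6% of all genes). The median was 0.17, against 0.02 over all genes. As the list was not chosen blind to these data, its count is a description only. At unadjusted p below 0.05, 2 were higher and 0 lower, where 4.41% of all genes were higher and 3.74% lower. Eef2k, the calmodulin-dependent kinase of elongation factor 2, read 291, 327 and 313 in WT, 300, 272 and 300 in Het, and 465, 437 and 414 in KO. All 3 KO arrays lay above all others, by 0.48 against WT (0.15 to 0.80, 1.39-fold, adjusted p = 0.5) and 0.57 against Het (0.24 to 0.89, 1.48-fold, adjusted p = 0.369). Marcks, a PKC substrate that binds calmodulin and actin as GAP-43 does, averaged 6983 ± 830 over the WT arrays against 8453 ± 393 over the KO arrays (SD, n = 3), with the KO arrays above the WT arrays (0.28, adjusted p = 0.612). Mylk, the calmodulin-dependent myosin light chain kinase, was at 208 ± 13.9 in Het and 294 ± 24.6 in KO (0.47, adjusted p = 0.542), with the KO arrays above the Het arrays. Nos1, the calmodulin-dependent nitric oxide synthase of neurons, and Nfatc4, a transcription factor that calcineurin frees, were at 0.41 and 0.42 in Het against WT with overlapping arrays. In KO against WT, Nos1 was at 0.33 with overlapping arrays, while Nfatc4 read 222, 158 and 212 in WT and 277, 274 and 239 in KO, without overlap (0.40, −0.08 to 0.88, adjusted p = 0.692).

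Of 23 tested genes of the cAMP side, 14 were above 0 in KO against WT (median 0.01), with 1 higher and 1 lower at unadjusted p below 0.05 (all genes 4.41% and 3.74%). Pde7b, a phosphodiesterase that breaks down cAMP, read 94.5, 145 and 97.3 in WT, 204, 178 and 231 in Het, and 208, 161 and 176 in KO. Every mutant array lay above every WT array (0.80 in Het, adjusted p = 0.789, and 0.64 in KO, adjusted p = 0.518, against the same WT arrays). The WT mean of Pde7b was 112, below the lowest mean kept of about 117, so it passed the filter through its mutant arrays. Pde7a went the other way in Het, with 246, 192 and 204 against 376, 303 and 265 in WT (−0.52, adjusted p = 0.789). Pkia, an inhibitor of PKA, was at 9460 ± 1220 in WT, 7652 ± 532 in Het and 9962 ± 1608 in KO, with −0.30 in Het against WT and 0.37 in KO against Het. Pde1b, a phosphodiesterase that calmodulin activates, was at 325 ± 19.3 in WT and 228 ± 109 in KO, and KO replicate 1 at 337 lay among the WT arrays.

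Of 14 tested genes of the Gq and phosphoinositide side, 6 were above 0 in KO against WT (median −0.03), and none reached an unadjusted p of 0.05 in any comparison. Plcb1, the phospholipase downstream of Gq, read 417, 458 and 589 in WT, 388, 283 and 337 in Het, and 200, 434 and 446 in KO, so that Het lay below WT (−0.51, −1.09 to 0.07, adjusted p = 0.79) and KO overlapped it. Dgka, which removes diacylglycerol, was at 0.42 in KO and 0.41 in Het against the same WT arrays, with overlapping arrays. Itpr2, a receptor for inositol trisphosphate, read 200, 136 and 233 in Het and 135, 128 and 130 in KO (−0.45, −0.95 to 0.04, adjusted p = 0.673), and Pip5k1c, which makes the lipid that phospholipase C cuts, was at −0.30 in KO against Het with overlapping arrays.

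Of 23 tested regulators of G proteins, 12 were above 0 in KO against WT (median 0.01, all genes 0.02), 17 in Het against WT (median 0.17, all genes 0.04) and 6 in KO against Het (median −0.15, all genes −0.03). With the arrays brought to the same median, these counts were 11, 16 and 7. At unadjusted p below 0.05, 1 was higher and 1 lower in KO against WT (all genes 4.41% and 3.74%), 4 and 1 in Het against WT (all genes 4.09% and 1.94%), and 0 and 2 in KO against Het (all genes 3.56% and 4.08%). Rgs2, which speeds up GTP hydrolysis by Gq, had the largest change in these lists. It read 1791, 881 and 1365 in WT, 1455, 2014 and 1140 in Het, and 326, 460 and 933 in KO. KO lay below every Het array (−1.49, −2.24 to −0.75, 2.82-fold, adjusted p = 0.307) and overlapped WT through KO replicate 3 and WT replicate 2 (−1.29, −2.03 to −0.54, 2.44-fold, adjusted p = 0.46). Rgs7, the partner of Gnb5, was at 2583 ± 386 in WT, 3254 ± 91.4 in Het and 2412 ± 231 in KO, with 0.34 in Het against WT and −0.43 in KO against Het (adjusted p = 0.499). Gprin1, a neurite protein that binds activated Go, read 607, 618 and 577 in WT, 785, 879 and 754 in Het, and 949, 671 and 724 in KO, with all mutant arrays above WT (0.36 in KO and 0.41 in Het, adjusted p = 0.622 and 0.789).

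Of 11 tested receptors, 5 were above 0 in KO against WT (median −0.06), with 1 higher and 0 lower at unadjusted p below 0.05 (all genes 4.41% and 3.74%). Htr1b, a Gi-coupled serotonin receptor, read 390, 405 and 355 in WT, 666, 658 and 553 in Het, and 596, 569 and 495 in KO. Every mutant array lay above every WT array, by 0.68 in Het (0.34 to 1.02, 1.60-fold, adjusted p = 0.789) and 0.51 in KO (0.17 to 0.85, 1.42-fold, adjusted p = 0.475), both against the same WT arrays. Htr1a, another Gi-coupled serotonin receptor, read 165, 154 and 128 in Het and 300, 211 and 168 in KO (0.53, 0.04 to 1.02, adjusted p = 0.621), with KO replicate 3 just above the Het arrays. Drd2, a dopamine receptor, read 145, 148 and 76 in WT and 183, 150 and 223 in Het (0.57, 0.02 to 1.11, adjusted p = 0.789), with Het replicate 2 just above the WT arrays. Npy1r, a receptor for neuropeptide Y, was at 0.36 in KO against WT, and the adhesion receptor Adgrg1 at −0.37 in KO against Het, both with overlapping arrays.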

How the data were processed

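Per the labels' protocols, layer IV RNA was purified on RNeasy columns after laser microdissection, amplified in a two-cycle cDNA protocol and labelled with biotin. The authors deposited a linear intensity for each probe set. The submitters' processing notes name MAS5 and Affymetrix Expression Console without versions, and no source here states filters or the scaling target. After trimming 2% at either end, every array had a mean intensity of 500.2, so the deposited arrays already shared a level. MAS5 reads dim probe sets with much noise, and 3 arrays a genotype limit the precision of every value.

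Control probe sets were dropped. Signals were converted to log2(signal + 16), which understates changes of dim probe sets, and the brightest 60% by mean over the 9 arrays were tested (13576, with a lowest mean of about 117). The fit in limma 3.58.1 (R 4.3.3) had genotype as its single term over all 9 arrays, with an intensity trend in eBayes, 6 residual and 6.94 prior degrees of freedom, 2-sided tests and Benjamini-Hochberg adjustment over all tested probe sets at 0.05. The procedure was tested on simulated data. Names came from the platform annotation, and all 117 member probe sets matched the RefSeq gene table by Entrez identifier with 0 symbols differing. The brightest probe set stands for a gene. No genome build is stated for the probe sets. Some genes of these families are not reported here.

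The members, the lists and the named genes were chosen with earlier results of these data known. Named were members with an unadjusted p below 0.05 in any comparison, the member of smallest p in each family and comparison, members fixed by role, members whose probe sets disagree, and the 2 genes of smallest p in each pathway list and comparison; the remaining members named were chosen after their values were seen. Replicate numbers did not pair the arrays: deviations of same-numbered arrays correlated at −0.255 to 0.111 over 9 pairs, and of differently numbered arrays at −0.153 to 0.204 over 18. Alternatives were other pseudocounts, filters and scalings, array weights, no intensity trend, the Gapdh 3'/5' difference as a term, a replicate block, only the compared groups, and each array left out.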

Additional observations from a re-analysis of the deposited data

How the results depend on the processing

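No member passed the adjusted threshold under any of 11 alternative settings or with any of the 9 arrays left out, so the adjusted counts stayed at 0. All 23 changes of a member at unadjusted p below 0.05 kept their sign in all 454 refits. They were picked on these same arrays, so a kept sign says little. In KO against WT, the limma p stayed below 0.05 in all 20 refits for Gnao1 and Gng11. It did so in 10 of 20 for Gnaz and 8 of 20 for the dimmer probe set of Gng12. For the dimmer probe set of Camkk2 in Het against WT it did so in 6 of 20. The number of members at unadjusted p below 0.05 was less stable. In KO against WT it was 11 and ran from 5 to 12 with an array left out. In Het against WT it was 4, and it was 8 with array weights (9.76% of members, where 13.4% of all probe sets passed), 2 with the replicate block (2.44%, against 5.62%) and 2 to 5 with an array left out. In KO against Het it was 8, and it was 5 with only the top 40% of probe sets by mean (7.94% of the 63 members kept, against 8.04% of all) and 5 to 8 with an array left out. The replicate block gave 10 and 8 in KO against WT and KO against Het. The median over member genes in Het against WT, 0.02, ran from 0.00 to 0.08 with an array left out. The causes of these shifts were not tested. Dim probe sets limit what can be read: 35 of the 117 member probe sets lay below the filter.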
